A study of Mus musculus with 6 samples.

Results

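The bone-resorbing enzymes and metalloproteases described here are 10 genes, listed by name: Acp5, Ctsk, Mmp9, Mmp12, Mmp13, Mmp14, Mmp19, Timp1, Timp2 and Adam8. Their members on the array were all probe sets annotated to exactly 1 of these genes, which gave 19 of the 34945 probe sets that carry 1 gene, or 10 of 18193 genes. Acp5, Ctsk, Mmp12, Mmp13, Timp1 and Adam8 had 1 probe set each, Mmp9 and Mmp19 had a pair each, Mmp14 had 3 and Timp2 had 6.

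Expression was measured in RAW264.7, a mouse monocyte-macrophage line that yields osteoclast-like cells when exposed to RANKL. The low-sodium cells spent 24 hours at 120 mmol/l sodium with mannitol added to hold osmolality at 290 mOsm/l (3 arrays). The normal-sodium cells spent 24 hours at 137 mmol/l sodium, also at 290 mOsm/l (3 arrays). Both groups are the same unmodified line in αMEM with fetal bovine serum, so each array stands for a culture of 1 line and not for an animal. The labels name 4 biological replicates per group, of which 3 per group were analysed here. The cytokines M-SCF (10 ng/ml, spelled as in the labels) and RANKL (30 ng/ml) are mentioned next to the low-sodium medium in a way that does not settle whether normal-sodium cells received them too. How the replicates were cultured is not given, so p-values measure the spread between these arrays. In RNA from whole cultures, a larger share of cells expressing a gene and more RNA per cell cannot be told apart.

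Osteoclasts dissolve bone in a sealed acidic space beneath the cell. Mineral is removed by acid, and the exposed collagen is cut by cathepsin K, a lysosomal cysteine protease, and by zinc-dependent matrix metalloproteases, which TIMP proteins inhibit by binding their active site. TRAP, the tartrate-resistant acid phosphatase encoded by Acp5, is the classical histochemical stain of osteoclasts, and macrophages also use several of these enzymes to cross and remodel matrix.

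Proximal promoters are shown for Ctsk, which passed 1 of the fits below, and for Mmp12 and Mmp13, the members whose windows hold the AP-1 letters. RefSeq windows (GRCm38.p6, 250 bases before to 50 after an annotated start) were matched for 8 of the 10 genes, 11 windows in all. They lie at chr3:95498960-95499259 (Ctsk, + strand), chr9:7347124-7347423 (Mmp12, + strand, from the downstream of its 2 annotated starts) and chr9:7272264-7272563 (Mmp13, + strand). Capitals mark TGANTCA, the AP-1 letters, and GGAAGT, the ETS and PU.1 letters, on either strand, and the 2 motifs did not overlap in these windows.
Ctsk: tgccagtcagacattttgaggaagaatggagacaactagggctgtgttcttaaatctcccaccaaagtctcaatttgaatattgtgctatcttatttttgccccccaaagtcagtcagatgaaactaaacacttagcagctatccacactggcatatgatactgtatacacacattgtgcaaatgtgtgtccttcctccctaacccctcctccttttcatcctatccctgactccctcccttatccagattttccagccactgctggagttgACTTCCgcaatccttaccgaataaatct
Mmp12: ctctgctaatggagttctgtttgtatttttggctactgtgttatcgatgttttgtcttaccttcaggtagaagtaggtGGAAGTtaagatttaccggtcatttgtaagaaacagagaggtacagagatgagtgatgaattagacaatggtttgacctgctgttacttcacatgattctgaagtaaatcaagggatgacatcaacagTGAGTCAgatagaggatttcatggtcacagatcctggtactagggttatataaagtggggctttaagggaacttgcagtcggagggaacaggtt
Mmp13: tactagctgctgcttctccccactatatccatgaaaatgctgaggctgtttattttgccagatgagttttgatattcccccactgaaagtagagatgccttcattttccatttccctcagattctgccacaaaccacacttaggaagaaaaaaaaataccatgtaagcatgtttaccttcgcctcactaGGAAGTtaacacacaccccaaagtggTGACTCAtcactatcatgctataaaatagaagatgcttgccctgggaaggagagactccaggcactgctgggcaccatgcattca

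The AP-1 letters began at position -44 of the Mmp12 window and -35 of the Mmp13 window, counted back from the annotated start. They occurred in 2 of the 11 member windows, against 7.81% of 32851 windows of the same length. GGAAGT occurred in 6 of the 11, against 23.8% of all windows. The E-box letters CANNTG were present in 9 of 11 (72.3% of all windows), the NFAT core GGAAA in 7 of 11 (61.3%) and the NF-kB motif in 0 of 11 (1.63%). These matches describe letters in a window and are not binding sites.

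Replicate 3 of both groups stood apart from replicates 1 and 2, and values are therefore also given within each batch. Spiked labelling transcripts averaged a log2 intensity of 8.36 on both replicate 3 arrays, and 10.0 to 10.3 on the other 4. The 3′ minus 5′ difference of the spiked dap transcript was 2.94 in low sodium and 3.07 in normal sodium in replicate 3, and between 0.96 and 1.06 elsewhere. The same difference for cellular Gapdh ranged from -0.34 to -0.25 in low sodium and from -0.36 to -0.22 in normal sodium. For cellular Actb it was 0.08 in low sodium and 0.09 in normal sodium in replicate 3, and between 0.20 and 0.29 on the other 4 arrays. All 10 macrophage markers and 8 of 10 osteoclast markers were brighter, in at least 1 group, than an intensity of 57.6, the middle value over all probe sets. A probe set is called dim below where the means of its log2 values lie under the log2 form of this limit, 5.87, in both groups. The osteoclast markers Calcr, the calcitonin receptor gene, and Itgb3 were dim. The osteoclast markers, which include Acp5 and Ctsk, summed to 8246 to 9781 in low sodium and 3467 to 4334 in normal sodium. A few bright genes carry that sum: Atp6v0d2 alone had 6156 in low-sodium replicate 3. Of the 10 osteoclast markers 4 passed the batch-term fit described below as higher (Ctsk, Dcstamp, Ocstamp and Atp6v0d2). Nfatc1 and Oscar had differences of -0.23 and -0.17, the dim Itgb3 one of -0.23 ± 0.60, and Tnfrsf11a, the RANK gene, one of 0.12. Of the 10 macrophage markers 2 passed the batch-term fit as higher, each higher in all 3 replicates. These were Adgre1, the F4/80 gene (0.96 ± 0.10, adjusted p = 0.00394, limma), and Mertk, an efferocytosis receptor gene (1.47 ± 0.22, adjusted p = 0.0128, limma). Csf1r had a difference of -0.16, lower in all 3 replicates, and did not pass. Itgam and Fcgr1 changed sign, from 0.46 and 0.49 in replicates 1 and 2 to -0.62 and -0.51 in replicate 3. The median of the 10 macrophage markers was 0.13. The part of these marker differences in the members' results was not tested. Among markers of other cells, 5 of 8 osteoblast and stromal, 5 of 7 lymphocyte and 2 of 6 neutrophil genes were dim, and 0 of these genes passed either fit below.

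The comparison asked whether genes that carry out resorption differ between RAW264.7 cells in low and in normal sodium. Ctsk, both probe sets of Mmp9 and 2 of the 6 probe sets of Timp2 were higher in low sodium and passed a fit with a batch term, while 0 member probe sets were lower by that fit. Acp5 did not pass, and its log2 difference was 2.17 in replicate 3 but -0.04 over replicates 1 and 2. Without a batch term 0 of the 19 passed. The fold differences of the probe sets that passed lay between 1.66 and 4.33.

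Both fits used limma with Benjamini-Hochberg adjustment over 45037 probe sets and a threshold of 0.05. The fit without a batch term called 0% of all probe sets higher and 0% lower, and the members' adjusted p ran from 0.528 to 0.996. At an unadjusted p under 0.05 it held 4 of the 19 member probe sets, 1 of Mmp9 and 3 of Timp2, against 6.37% of all probe sets. The fit with a batch term (replicate 3 against replicates 1 and 2) and a trended prior called 5 of 19 higher, against 2.07% of all, and 0 of 19 lower, against 2.01%. Counting only the brightest probe set of each gene, 3 of 10 were called higher (3.09% of all genes) and 0 lower (2.92%). This second fit was taken from an earlier account of these arrays, which chose it with its counts of calls in view, so "rose" and "passed" below mean that it called a gene and carry less weight than a call of the first. With a constant in place of the trended prior the batch term called 0 of the 19, and it kept 0 of the 5 calls without low-sodium replicate 1 or 2, and 1 of them without normal-sodium replicate 1 or 2.

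Of the 19 differences 17 were above 0, against 47.9% of all probe sets, and their median was a log2 value of 0.73, against -0.02 over all probe sets. In 6 of the 19 every low-sodium array exceeded every normal-sodium array, against 6.97% of all probe sets, and in 0 of 19 was the order reversed, against 7.88%. These 6 belonged to Mmp9, Mmp19, Adam8 and, with 3 probe sets, Timp2. Within replicates 1 and 2 the low-sodium pair lay above the normal-sodium pair in 12 of 19 (25.7% of all) and below it in 0 (22.4% of all). The difference was above 0 in 13 of 19 probe sets in replicates 1 and 2 (52.7% of all) and in 14 of 19 in replicate 3 (43.9% of all), and 12 had the same sign in both. The members were chosen with earlier results of these data known, and 6 of the 19 probe sets belong to Timp2. Their shares here and in the paragraph above are therefore descriptions and no test of the group.

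**Figure D1:**
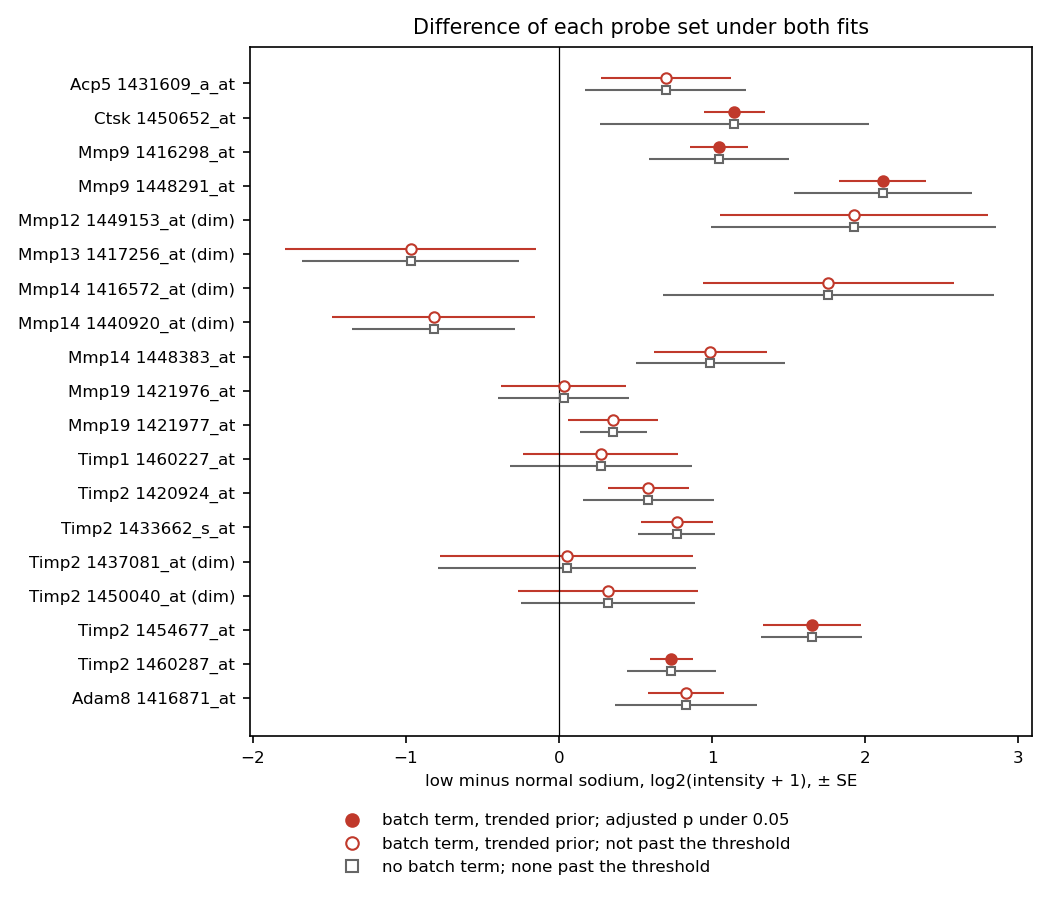
Difference between low and normal sodium for each of the 19 probe sets on the log2(intensity + 1) scale, with the SE of the fit with a batch term (circles, filled where the adjusted p was under 0.05) and of the fit without one (squares, n = 3 against 3). The filled circles are Ctsk, both Mmp9 probe sets and 2 of the 6 Timp2 probe sets, and all lie above 0.

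Ctsk, the collagen-cutting cathepsin of osteoclasts, had intensities of 2295, 2139.9 and 352 in low sodium (replicates 1 to 3), against 794, 771 and 259.8 in normal sodium. Low sodium was higher in each of the 3 replicates, but replicate 3 was the lowest array of both groups, and its low-sodium value fell below normal-sodium replicates 1 and 2. On the log2 scale Ctsk averaged 10.23 ± 1.53 in low sodium and 9.08 ± 0.92 in normal sodium (SD, n = 3 each). The difference of 1.15 ± 0.20 (SE) passed the batch-term limma fit (adjusted p = 0.0224), whereas the fit without the term gave 1.15 ± 0.88 (adjusted p = 0.880). The fold was 2.83 in replicates 1 and 2 and 1.35 in replicate 3.

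Acp5, the TRAP gene, had intensities of 179.9, 158 and 246 in low sodium, against 189.8, 158 and 54.1 in normal sodium. Replicates 1 and 2 were nearly level between the media, and the replicate 3 arrays held both the highest and the lowest value of all 6. The averages were 7.59 ± 0.33 in low sodium and 6.89 ± 0.97 in normal sodium (log2, SD, n = 3 each). The difference of 0.70 ± 0.42 did not pass the batch-term limma fit (adjusted p = 0.477), with a log2 difference of -0.04 in replicates 1 and 2 and 2.17 in replicate 3.

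Adam8, a membrane-anchored metalloprotease of the disintegrin family expressed in myeloid cells and osteoclasts, gave intensities of 11126, 11507 and 10548 in low sodium, against 8884, 8849 and 3071 in normal sodium. The groups did not overlap, and normal-sodium replicate 3 was far below the other 5 arrays. The averages were 13.43 ± 0.06 in low sodium and 12.60 ± 0.88 in normal sodium. Its difference of 0.83 ± 0.25 missed the batch-term limma threshold (adjusted p = 0.127). Within replicates 1 and 2 the difference was 0.35 ± 0.04 and passed a trended limma fit on those 4 arrays (adjusted p = 0.00342). With a constant prior it did not pass on the same arrays. In replicate 3 the difference was 1.78.

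**Figure D2:**
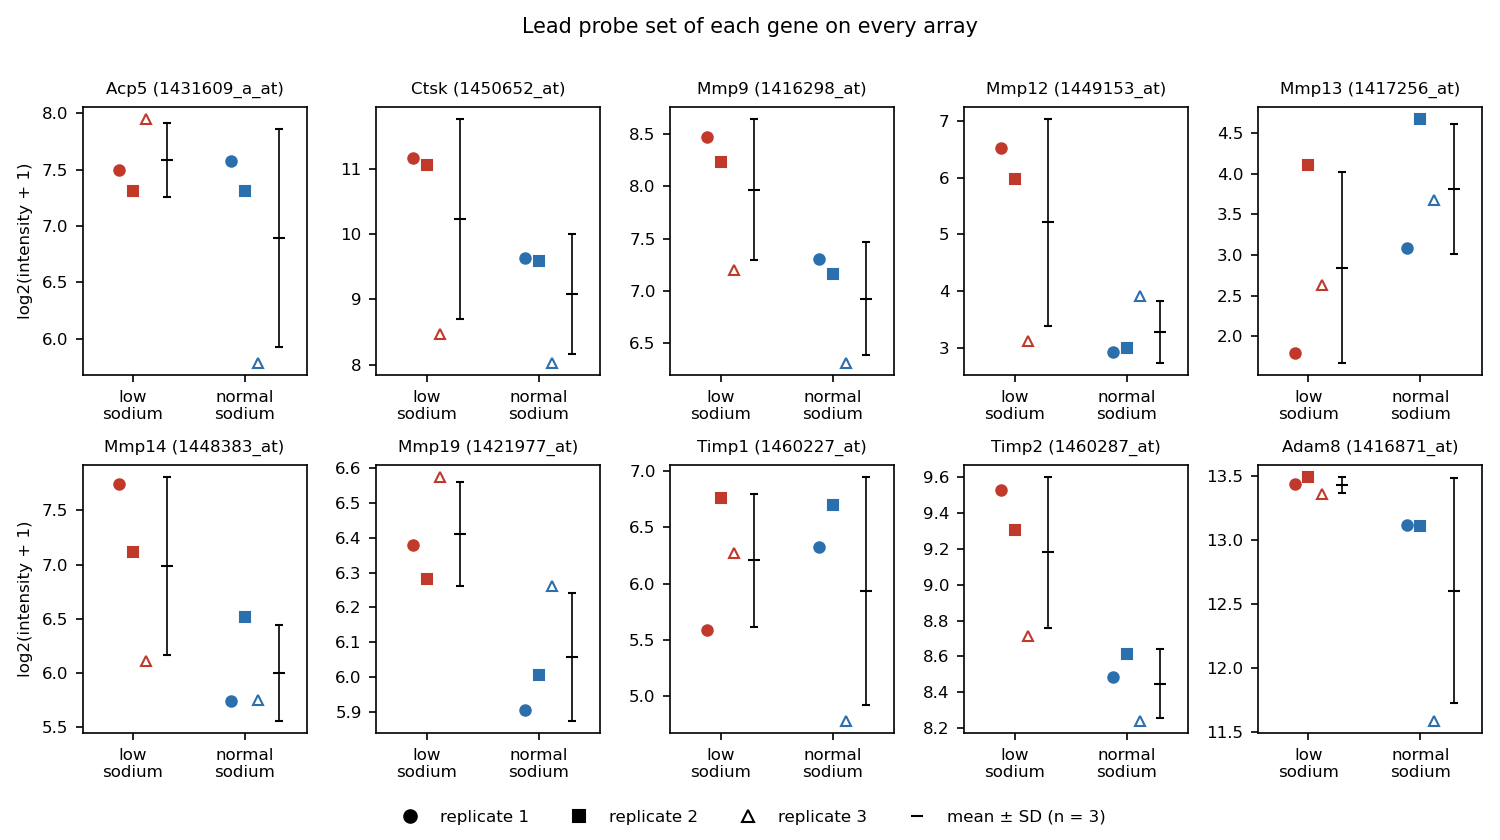
Log2(intensity + 1) of the brightest probe set of each of the 10 genes on every array, low sodium left of normal sodium, with replicate 3 as open triangles and the mean ± SD (n = 3) beside each group. Each panel has its own vertical scale. The replicate 3 triangles are the lowest points of both groups for Ctsk, Mmp9 and Timp2, whereas for Acp5 they are the highest low-sodium and the lowest normal-sodium point.

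A further limma fit set the low-sodium effect in replicate 3 against that in replicates 1 and 2. It takes the spread from replicates 1 and 2, so the single replicate 3 array of each group is assumed to vary like them. It was chosen after the values had been seen. By this fit 3 of the 19 member probe sets differed between batches, against 5.4% of all probe sets. Acp5 had a larger difference in replicate 3 by 2.20 ± 0.36 (SE, adjusted p = 0.0226), as did Adam8 by 1.43 ± 0.07 (adjusted p = 0.00119), whereas in Ctsk it was smaller, at -1.06 ± 0.14 (adjusted p = 0.0117). With a constant prior 0 of the 19 passed (adjusted p of 0.202, 0.202 and 0.230 for Acp5, Adam8 and Ctsk). The spiked transcripts also separated these batches, and their part in the result was not tested.

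**Figure D3:**
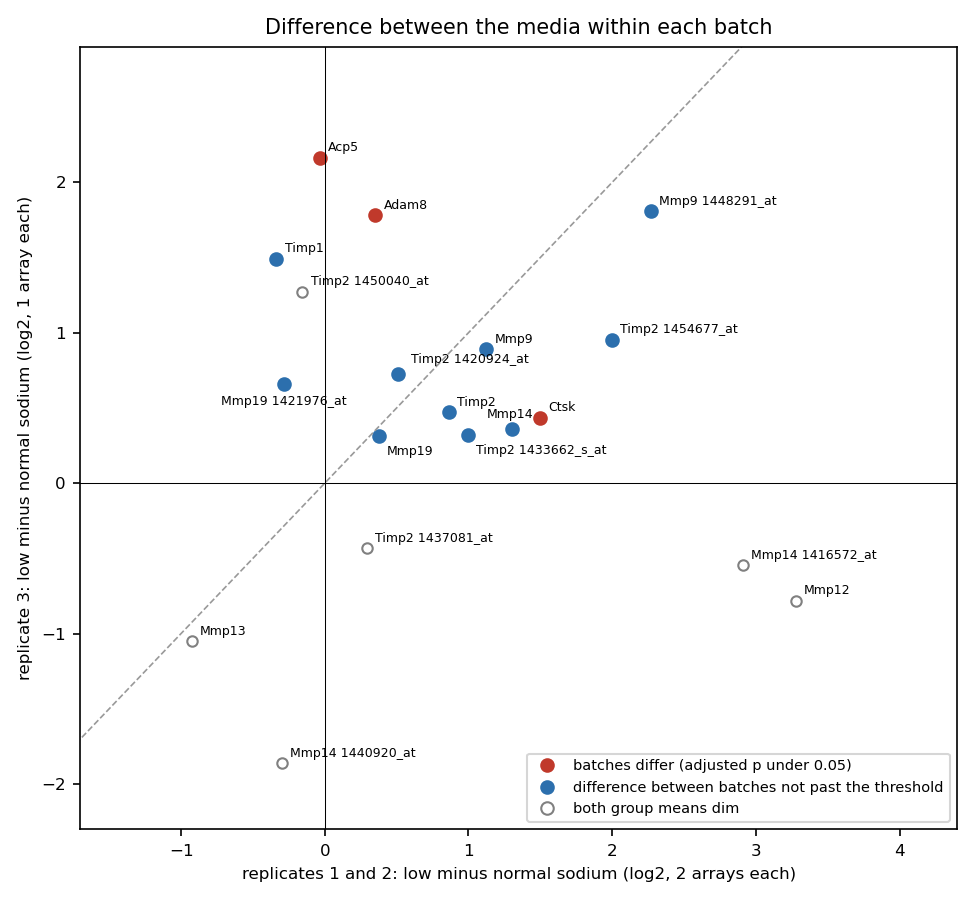
Low minus normal sodium (log2) in replicates 1 and 2 on the horizontal axis and in replicate 3 on the vertical axis, 1 point per probe set, with a dashed line of equality. A gene name alone stands for its brightest probe set. Acp5 and Adam8 lie above the line and Ctsk below it (red, adjusted p under 0.05), while both Mmp9 probe sets lie nearer the line, and open points are dim.

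The gelatinase gene Mmp9, whose enzyme degrades denatured collagen and helps osteoclast precursors migrate, was measured by a pair of probe sets. Probe set 1416298_at had intensities of 355, 301 and 146 in low sodium, against 157, 142 and 78.0 in normal sodium. Probe set 1448291_at had 287, 341 and 106 in low sodium, against 79.4, 51.8 and 29.6 in normal sodium. Low sodium was higher in every replicate of both probe sets, and the groups were separate in the second but overlapped in the first, where low-sodium replicate 3 lay below normal-sodium replicate 1. The difference was 1.05 ± 0.19 for 1416298_at (adjusted p = 0.0245, batch-term limma fit) and 2.12 ± 0.28 for 1448291_at (adjusted p = 0.00818), with folds of 2.07 and 4.33. By replicate, the log2 differences of the first were 1.17, 1.08 and 0.89, and those of the second 1.84, 2.69 and 1.81. Both probe sets therefore gave the same direction with different sizes. The second was also called by limma with the replicate number as a block (adjusted p = 0.0326). That block matches arrays by number, although the numbers did not mark pairs within replicates 1 and 2.

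Mmp9 is a neutrophil product as well, although each array here is a culture of the RAW264.7 line alone. The 6 measured neutrophil markers had a summed intensity of 282 to 592 in low sodium and 231 to 377 in normal sodium, and 0 of the 6 passed the batch-term fit. They went both ways. S100a8 had a difference of 1.04 ± 0.24 (adjusted p = 0.0590, limma), higher in each replicate (0.97, 0.62 and 1.53). In replicates 1 and 2 alone S100a8 passed a trended limma fit (adjusted p = 0.0476), but not one with a constant prior. Ltf had a difference of 2.11 ± 0.72, Mpo one of 0.46 and Elane one of 0.02, whereas the dim S100a9 and Camp had -1.98 and -0.95. How the differences of these genes relate to that of Mmp9 was not tested.

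Mmp12, the macrophage metalloelastase gene, had intensities of 91.2, 61.7 and 7.77 in low sodium, against 6.65, 7.05 and 14.1 in normal sodium. Its signal in low sodium was above the dim limit in replicates 1 and 2 and near the bottom of the scale in replicate 3, as on all normal-sodium arrays. Over all arrays the difference of 1.92 ± 0.88 did not pass (adjusted p = 0.323, batch-term limma fit). On replicates 1 and 2 alone it was 3.28 ± 0.65 and passed a trended limma fit (adjusted p = 0.0256), while in replicate 3 it was -0.78. Since the normal-sodium values are dim, the size depends on the added constant, and the difference over all arrays became 1.22 with 16 added instead of 1.

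Mmp13, the collagenase gene known mainly from osteoblasts and chondrocytes, was dim in both media. It had 2.47, 16.3 and 5.18 in low sodium, against 7.48, 24.6 and 11.8 in normal sodium, and the groups overlapped. Its difference of -0.97 ± 0.82 did not pass (adjusted p = 0.631) and became -0.36 with 16 added. Mmp12 and Mmp13 share the AP-1 letters in the windows printed above, and neither passed the fit over all arrays. The window of the other annotated Mmp12 start held 0 matches. How these letters relate to the differences was not tested.

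Mmp14 encodes the membrane-anchored collagenase MT1-MMP, which activates pro-MMP2 at the cell surface. Its brightest probe set, 1448383_at, had intensities of 213, 137 and 68.2 in low sodium, against 52.4, 90.3 and 52.8 in normal sodium. Low sodium was higher in every replicate, although the groups overlapped, and the difference of 0.99 ± 0.37 did not pass (adjusted p = 0.217, batch-term limma fit). Probe set 1416572_at had 60.9, 69.9 and 3.85 in low sodium, against 6.02, 10.0 and 6.06 in normal sodium, and its log2 difference was 2.91 over replicates 1 and 2 but -0.54 in replicate 3. That probe set was dim, and its difference over all arrays, 1.76 ± 0.82, became 1.12 with 16 added. The third, 1440920_at, was dim too, with a difference of -0.82 ± 0.66 that became -0.30 with 16 added, and no direction is read from it. Mmp2 itself was dim by its mean log2 values, although 4 of its 6 arrays exceeded 57.6, with a difference of 0.13 ± 0.84.

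Mmp19, a metalloprotease gene with a basement membrane substrate range, showed small differences. Probe set 1421977_at had 82.2, 76.8 and 94.4 in low sodium, against 59.0, 63.2 and 75.8 in normal sodium. These groups were separate by a narrow margin, and the difference was 0.35 ± 0.29 (adjusted p = 0.621, batch-term limma fit). The other probe set, 1421976_at, had a difference of 0.03 ± 0.41, which was -0.28 in replicates 1 and 2 and 0.66 in replicate 3.

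Timp2, the inhibitor that also takes part in pro-MMP2 activation by MT1-MMP, was measured by the most probe sets. The brightest, 1460287_at, had intensities of 737, 632 and 418 in low sodium, against 358, 391 and 301 in normal sodium. Probe set 1454677_at had 243, 246 and 168 in low sodium, against 46.4, 78.7 and 86.3 in normal sodium. In both the groups were separate and low sodium was higher in every replicate. They rose by 0.73 ± 0.14 (adjusted p = 0.0292, batch-term limma fit) and by 1.65 ± 0.32 (adjusted p = 0.0314), or 1.66-fold and 3.14-fold.

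The remaining Timp2 probe sets did not pass. Probe set 1433662_s_at had 257, 191 and 182 in low sodium, against 112, 109.6 and 145 in normal sodium, again without overlap (difference 0.77 ± 0.23, adjusted p = 0.132 in the batch-term limma fit). Probe set 1420924_at had a difference of 0.58 ± 0.26, higher in low sodium in each replicate (0.75, 0.28 and 0.73). The other 2, 1437081_at and 1450040_at, were dim, at 0.05 ± 0.83 and 0.32 ± 0.59. With all 6 averaged, the Timp2 difference was 0.68 ± 0.26 and did not pass (adjusted p = 0.216, over gene means).

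Timp1, the inducible inhibitor that binds pro-MMP9, had intensities of 47.0, 108 and 76.2 in low sodium, against 79.1, 103 and 26.4 in normal sodium. The groups overlapped and the order of the media changed between replicates. Its difference of 0.27 ± 0.51 did not pass (adjusted p = 0.854, batch-term limma fit). The log2 differences were -0.74 in replicate 1, 0.07 in replicate 2 and 1.49 in replicate 3.

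**Figure D4:**
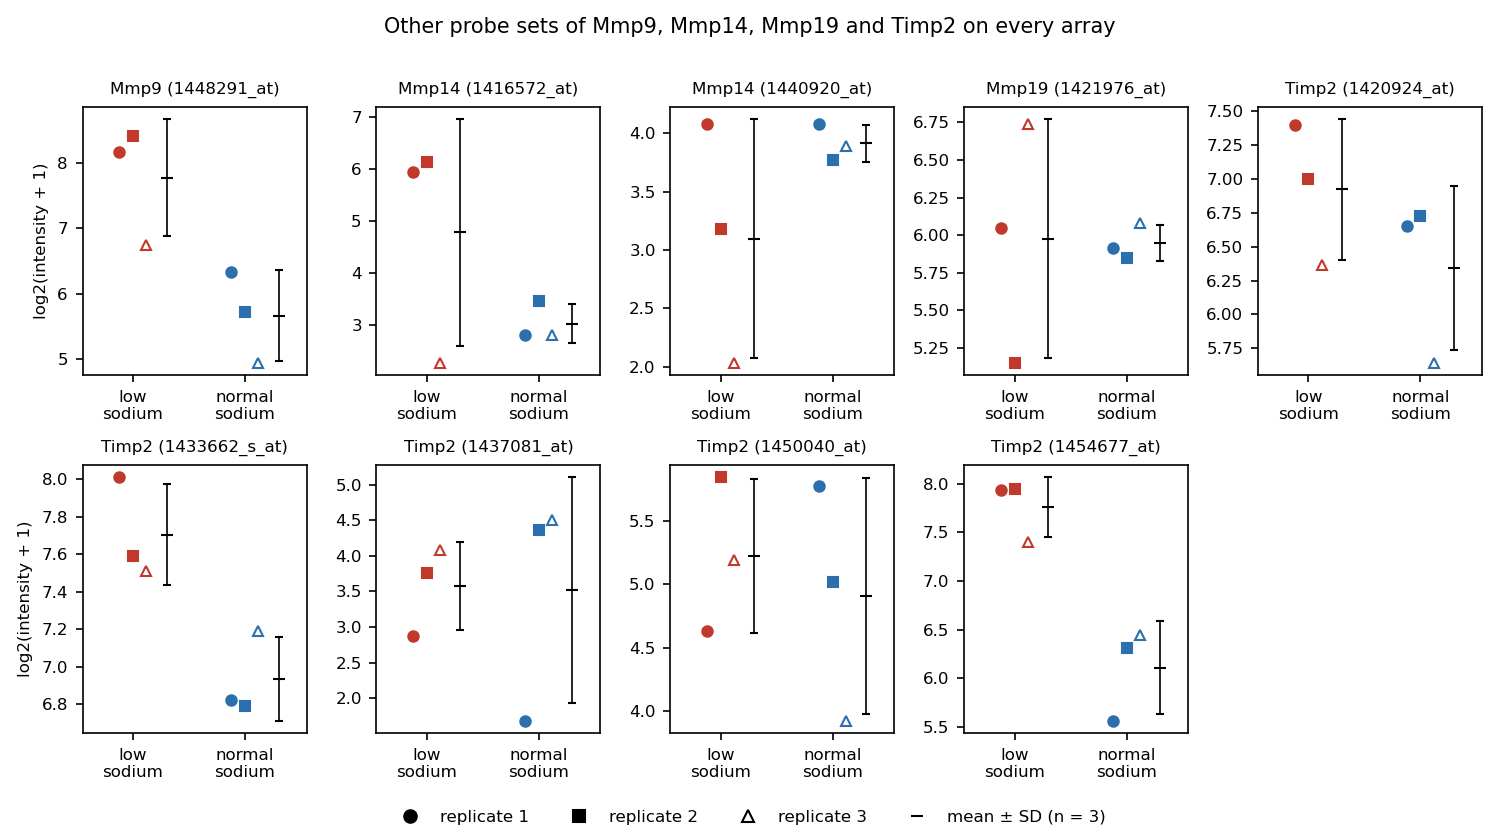
Log2(intensity + 1) on every array for the 9 further probe sets of Mmp9, Mmp14, Mmp19 and Timp2, low sodium left of normal sodium, drawn as in the plot of the brightest probe sets. The groups are separate for Mmp9 1448291_at, Timp2 1433662_s_at and Timp2 1454677_at, and overlap for the other 6.

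Restricted to replicates 1 and 2, a limma fit with a trended prior called 9 of the 19 member probe sets higher, against 4.15% of all probe sets, and 0 lower, against 4.1%. These were the 5 named above with Mmp12, Mmp14 1416572_at, Timp2 1433662_s_at and Adam8. Ctsk had a difference of 1.50 ± 0.07 there (adjusted p = 0.000129), and the spread it rests on is that between 2 arrays per group. With a constant prior 0 of the 19 passed on the same 4 arrays.

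Related genes were read from lists, by the brightest probe set of each gene and the same batch-term fit. That fit called 3.09% of all genes higher and 2.92% lower. Of 13 other matrix metalloproteases 11 were dim and 0 passed, and the 2 that were not dim, Mmp16 and Mmp24, had differences of 0.09 and 0.12. Of 16 other ADAM and ADAMTS proteases 1 rose and 0 fell. That gene was Adam17, which encodes the TNF-releasing enzyme TACE, with 8238, 7859 and 6945 in low sodium, against 6100.4, 6420 and 3643 in normal sodium (0.55 ± 0.11, adjusted p = 0.0405, limma). Adam9, Adam10 and Adam15 had differences of 0.31, 0.23 and 0.29 that did not pass. The median of the metalloprotease list was 0.09 and that of the ADAM list, where 8 of the 16 genes were dim, -0.02. The brightest probe sets of the 10 members had a median of 0.78. Members and lists were chosen with earlier results of these data known, so their counts and medians are descriptions and no test.

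Among 14 other lysosomal cathepsins and legumain 2 rose and 2 fell. Ctso rose by 0.63 ± 0.08 and Ctsd, the aspartic protease cathepsin D, by 0.38 ± 0.07, whereas Ctsc, which activates granule serine proteases, had a difference of -0.36 ± 0.06 and Ctsf one of -0.59 ± 0.09. Of 6 other acid phosphatases 0 passed, and lysosomal Acp2 had a difference of 0.50 ± 0.11 (adjusted p = 0.0547, limma), Acp6 one of -0.40 ± 0.10 (adjusted p = 0.0854), Acp7 one of 0.49 and Acp1 one of -0.01. Of 8 other protease inhibitors 0 passed as well, with values of 0.27 for Cstb and 0.05 for Cst3, which encode cysteine protease inhibitors of cathepsins, and -0.53 ± 0.69 for Cst7 and 1.39 ± 0.55 for Timp4.

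Genes for activation, docking and uptake of metalloproteases and collagen rose in 4 of 17 and fell in 0, with a median of 0.28. Plau, the urokinase gene, rose by 2.75 ± 0.29 and its receptor gene Plaur by 1.19 ± 0.16. Cd44, whose product docks MMP9 at the cell surface, rose by 0.83 ± 0.08 and the tetraspanin gene Cd151 by 0.54 ± 0.08. Within replicates 1 and 2 Plau had 2.19 and Plaur 1.46, against 3.89 and 0.65 in replicate 3. Cd44 had 0.91 and Cd151 0.57 in replicates 1 and 2, against 0.66 and 0.48 in replicate 3. Furin, the convertase that activates MT1-MMP, had a difference of -0.02 ± 0.12. A list of 22 other genes tied to resorption also held genes of fusion proteins, receptors and transcription factors. Of these 22 genes 10 rose and 1 fell, against 3.09% and 2.92% of all genes. Transcription factor and fusion genes were among those that rose. Dcstamp, Ocstamp and Atp6v0d2 rose too, but were already counted among the osteoclast markers above. Tcirg1 and Atp6v0d2, osteoclast proton pump subunit genes, rose by 0.84 ± 0.09 and 3.41 ± 0.50, and the cell fusion gene Dcstamp by 1.52. Car2, the carbonic anhydrase gene, had a difference of -2.99 ± 0.25. Within replicates 1 and 2 Atp6v0d2 had 2.45 and Car2 -3.47, against 5.33 and -2.04 in replicate 3. Tcirg1 had 0.74 and Dcstamp 1.66 in replicates 1 and 2, against 1.03 and 1.25 in replicate 3. Of the genes in these lists, 0 passed the fit without a batch term.

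**Figure D5:**
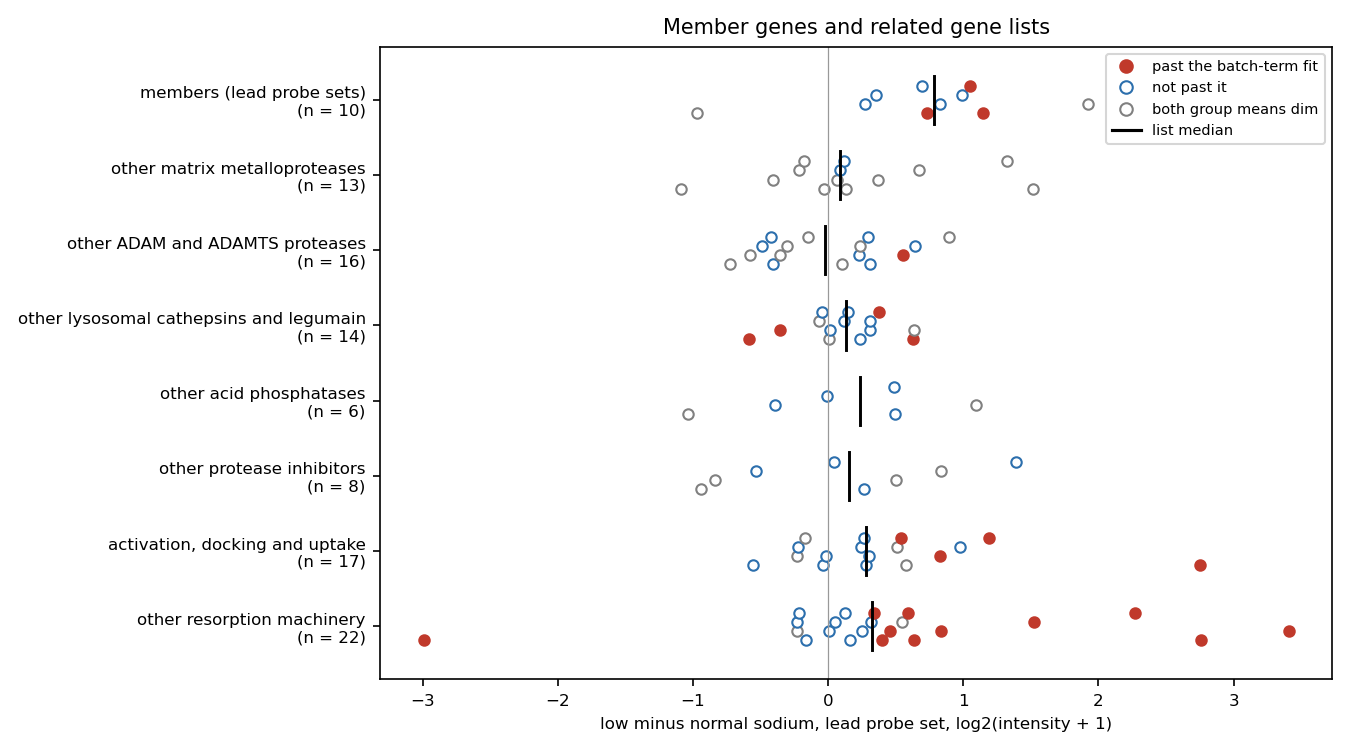
Low minus normal sodium (log2, brightest probe set) for the 10 members and for genes of 7 related lists, 1 point per gene, filled red where the batch-term fit gave an adjusted p under 0.05 and grey where both group means were dim. Black bars are medians, at 0.78 for the members and between -0.02 and 0.33 for the lists. Members and lists were chosen with earlier results of these data known, so the medians are no test.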

How the data were processed

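Total RNA (5 µg per sample) was labelled with biotin for Affymetrix arrays, per the labels' protocols. The authors deposited 1 linear intensity for each of 45101 probe sets on every array. The submitters' processing notes name Partek. How probes were summarised was not stated in the labels. Trimmed means were about 499.8 on all arrays, so the values look scaled to a common target. Array number limits precision.

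The deposited intensities were converted to log2(intensity + 1). A total of 64 control probe sets were left out, and 45037 were tested with limma 3.58.1 in R 4.3.3 (two-sided, adjusted p under 0.05). Probe sets were named from the platform annotation, updated by Entrez identifier to RefSeq GRCm38.p6 symbols (34945 with 1 gene, 932 with several, 9160 with none there). The lists' genes named in the text were up to 4 per list that were not dim, by smallest p of the batch-term fit, of which the osteoblast, lymphocyte and other macrophage markers are given as counts. Mmp2, Furin, Calcr, Nfatc1, Oscar, Itgb3, Tnfrsf11a, Csf1r, Itgam, Fcgr1, S100a9 and Camp were added after their values were seen. The members, lists, fits and this rule were chosen with earlier results of these data known. Scripts were tested on simulated data. Alternatives covered pseudocount, scaling, prior, blocks, dim probe sets and single arrays. Proteins and the Mmp9 and Mmp19 promoters were not analysed here.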

Additional observations from a re-analysis of the deposited data

Results flagged for a closer look

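In 3 member genes the difference between low and normal sodium was itself different in replicate 3 and in replicates 1 and 2, by a limma interaction fit with a trended prior. The difference in replicate 3 minus that in replicates 1 and 2 was 2.20 for Acp5, -1.06 for Ctsk and 1.43 for Adam8 on the log2 scale. Low against normal sodium stood at 2.17 in replicate 3 and -0.04 in replicates 1 and 2 for Acp5, at 0.44 and 1.50 for Ctsk, and at 1.78 and 0.35 for Adam8. Replicate 3 holds 1 array per group, and the same fit called 5.4% of all probe sets.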

How the results depend on the processing

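Over all probe sets, the fit without a batch term called 0, and it called 2 with dim probe sets left out, 1 with a pseudocount of 16, 33 with a trended prior and 703 with a replicate block and trended prior. Among the members it called 1 higher under that replicate block (Mmp9 1448291_at) and 0 under the other alternatives run. The replicate numbers were not treated as pairs. Same-numbered arrays had correlations of deviations of 0.0761, 0.0646 and 0.196. Replicate 1 of 1 group against replicate 2 of the other gave 0.0766 and 0.0680, and replicate 3 against replicate 1 or 2 gave -0.132 to -0.112. Within replicates 1 and 2 the numbers thus did not mark pairs, and differences given by replicate match those arrays by number only. The batch-term fit called 1840 probe sets, against 0 with a constant prior, 893 after median centring, 703 with the replicate block, 3714 in replicates 1 and 2 alone and 380 to 3684 when 1 array was left out. Its count of members called higher, 5, became 0 with a constant prior, 1 with the replicate block, 9 in replicates 1 and 2 alone and 0 to 9 when 1 array was left out. It was 0 without low-sodium replicate 1 or 2, 1 without normal-sodium replicate 1 or 2, 9 without low-sodium replicate 3 and 8 without normal-sodium replicate 3. Where a replicate 3 array was left out, the batch term fits the other one exactly. The counts of 9 and 8 therefore rest on replicates 1 and 2 and largely repeat the fit on those arrays. All 5 calls remained with a pseudocount of 16, quantile normalisation, median centring and dim probe sets left out. The interaction fit called 0 members and 0 probe sets with a constant prior, and 4445 probe sets after median centring.

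Among single probe sets, some signs reversed. In replicates 1 and 2 alone, the differences were -0.036 for Acp5, -0.28 for Mmp19 1421976_at, -0.34 for Timp1 and -0.16 for Timp2 1450040_at, in both fits. Mmp19 1421976_at was -0.0040 after quantile normalisation, and Timp2 1437081_at was -0.089 with a pseudocount of 16, again in both fits. In the interaction fit, median centring gave 0.12 for Mmp9 1416298_at, 0.22 for Mmp13 and 0.28 for Mmp19 1421977_at, and quantile normalisation gave 0.17 for Mmp13 and 0.23 for Mmp19 1421977_at. With 1 array left out, the batch-term and no-batch ranges were -0.036 to 0.98 and 0.14 to 1.04 for Acp5 (whose sign did not reverse without the batch term), -0.28 to 0.38 and -0.35 to 0.44 for Mmp19 1421976_at, -0.34 to 0.78 and -0.30 to 0.66 for Timp1, -0.78 to 0.75 and -0.86 to 0.55 for Timp2 1437081_at, and -0.16 to 0.81 and -0.17 to 0.76 for Timp2 1450040_at. The cause was not tested. Dim signals limit Mmp12, Mmp13 and the dim probe sets of Mmp14 and Timp2.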

Other observations

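The genes most like Acp5 and Ctsk were sought among 10835 genes that were not dim, by Pearson's r of log2 intensity over the 6 arrays, which all share the 2 batches. For Acp5 these were Id2, an inhibitor of helix-loop-helix factors (r = 0.99), Fbxo45 (r = 0.99) and the tetraspanin gene Cd9 (r = 0.98). Cd9 had intensities of 13871, 13727 and 17298 in low sodium, against 14643, 12897 and 8995 in normal sodium. Its highest and lowest arrays were both in replicate 3, which follows from its being picked for likeness to Acp5. Id2 had 446, 438 and 504 in low sodium, against 450.0, 445 and 289.8 in normal sodium.

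For Ctsk the nearest were Msn, which encodes the cortical linker moesin, Jmjd1c and the metallothionein gene Mt2, each at r = 1.00 after rounding. Mt2 had intensities of 27335, 26736 and 12877 in low sodium, against 17347, 16268 and 10679 in normal sodium. Its difference was 0.55, with 0.69 in replicates 1 and 2 and 0.27 in replicate 3. These likenesses are descriptions over 6 arrays and carry no test.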
